A study of Mus musculus with 2 samples.

Results

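Cxcl9, Cxcl10 and Cxcr3, the ligands and the receptor of one chemokine axis, were followed in single-cell RNA libraries of immune cells sorted from metastatic mouse lung. The 3 genes are 3 of 29413 genes whose Ensembl identifier was held by both deposited count matrices. They were chosen by name and selected on the measured level of Cxcl9 in macrophages, which earlier results of these data had shown to differ between the libraries, so their levels are given as descriptions. The samples were a niche library of immune cells and a distal lung library of immune cells, each made once, from female Balb/c mice whose lungs were taken 7 days after intravenous injection of labelling-4T1 cells, and both sorted by fluorescence and captured with a droplet-based 3′ kit. The 4T1 line is a mammary carcinoma of the mouse that colonizes the lung, and no mice without tumour cells are among the groups. The sources used here name neither the sort gates nor the number of animals pooled.

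CXCL9 and CXCL10 are small secreted chemokines that bind the same G protein-coupled receptor, CXCR3, which activated T cells, NK cells and some dendritic cells carry. Interferon gamma made by T and NK cells induces both ligands in macrophages and dendritic cells, and Cxcl10 is in addition a classical target of type I interferon and NF-kB. In tumours the axis is known for drawing effector T cells. Cxcl9 (ENSMUSG00000029417) lies on chromosome 5 from 92321347 to 92328079 and Cxcl10 (ENSMUSG00000034855) from 92346638 to 92348889, both on the minus strand of GRCm38. Cxcr3 (ENSMUSG00000050232) lies on chromosome X from 101731535 to 101734269, also on the minus strand. No exon of the 3 genes overlapped an exon of another counted gene on the same strand. The third ligand of the receptor, Cxcl11, was not analysed here.

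The upstream sequences of the ligands are shown because the genes found at higher levels beside each ligand among single macrophages are described further on. They are the 250 bases before the RefSeq start on GRCm38.p6, minus strand, at chr5:92328080-92328329 for Cxcl9 and chr5:92348890-92349139 for Cxcl10, with motif matches in capitals.
Cxcl9: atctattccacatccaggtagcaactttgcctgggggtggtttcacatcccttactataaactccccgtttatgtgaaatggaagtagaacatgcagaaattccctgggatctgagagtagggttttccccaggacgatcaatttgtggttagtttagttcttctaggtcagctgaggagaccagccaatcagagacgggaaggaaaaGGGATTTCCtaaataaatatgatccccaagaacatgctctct
Cxcl10: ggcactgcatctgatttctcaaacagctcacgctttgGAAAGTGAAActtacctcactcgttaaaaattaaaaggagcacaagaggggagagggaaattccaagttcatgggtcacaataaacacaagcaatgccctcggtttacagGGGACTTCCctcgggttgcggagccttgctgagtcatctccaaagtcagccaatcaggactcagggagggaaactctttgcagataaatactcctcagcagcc
Both strands were searched for an interferon-stimulated response element written as GAAA and again GAAA with 2 bases of any kind between them, a gamma-activated sequence written as TTCNNNGAA and an NF-kB site written as GGGANTTCC. The capitals in Cxcl9 mark 1 NF-kB match that begins 42 bases before the start. Those in Cxcl10 mark a response element match at 213 bases and an NF-kB match at 103 bases. The same length of sequence before the start held the response element in 2.98% of 32851 promoters, the gamma-activated sequence in 7.02% and the NF-kB site in 1.43%. The corresponding window of Cxcr3 held none of these letters. A match describes the sequence and does not show that a factor binds there. Only these exact letters were searched, so elements of other spelling or length stay in lower case, and an unmarked window is not read as lacking them.

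After filtering, 3080 niche and 3536 distal cells remained, at median depths of 11192.5 and 5789.5 UMIs (unique molecular identifiers, which count captured RNA molecules). Only 4 barcodes were shared by both sets of cells. Each group is 1 library, without replicates, so no test was run and a difference compares the 2 libraries, not the conditions. Every interval is a 95% interval for counting error alone. The niche matrix names a later Cell Ranger version and a longer gene list than the distal matrix, which cannot be told apart from the group. Levels are given in CPM, the UMIs of a gene in a cell class scaled to a common total. Classes were built from clusters and marker genes, with the 3 members left out of the clustering, and a class was compared as a ratio only where both libraries held at least 50 of its cells.

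Cxcl9 was carried above all by monocyte/macrophage-like cells. These cells numbered 2175 in the niche library and 495 in the distal library, and they held 84.7% and 58.7% of all Cxcl9 UMIs. Of the UMIs of all genes, the class held 29892891 of 37673767 in the niche library but 4046524 of 21724664 in the distal library. The niche share of Cxcl9 was thus near the class's share of all UMIs, whereas the distal share was far above it. Over all cells, Cxcl9 reached 4415 CPM for the niche library, while the distal library reached 652 CPM. Cxcl9 stood at 4711 CPM (exact Poisson interval 4686 to 4736) in niche cells of the class and at 2054 CPM (2010 to 2098) in distal ones. A Cxcl9 UMI was found in 94.1% of the niche cells (Clopper-Pearson 93.0 to 95.02) and in 54.9% of the distal cells (50.5 to 59.4), at median depths of 12255 and 7247 UMIs. When each cell was thinned to 1000 UMIs the shares were 79.2% and 37.6%. The niche cells were higher at full depth and after thinning.

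The log2 ratio of Cxcl9 in this class was 1.20 (1.17 to 1.23), niche over distal. Among 9419 genes with at least 100 UMIs in the class, 5.39% were past 1.5-fold in the same direction and 8.08% in the other. Cxcl10, whose protein binds the receptor as well, stood at 1234 CPM (1221 to 1246) in niche and 966 CPM (936 to 997) in distal cells, a log2 ratio of 0.35 (0.31 to 0.40) that did not reach 1.5-fold. It was found in 68.8% of niche and 34.9% of distal cells of the class, and in 37.7% and 17.6% after thinning to 1000 UMIs. RNA of the 3 C1q genes, which marks tissue macrophages, was nearly level in the class, with 10263 CPM in the niche and 9957 CPM in the distal library. In mixed clusters, whose droplets carried markers of more than 1 lineage, Cxcl9 was at 3697 and 1437 CPM (log2 ratio 1.36, 1.304 to 1.42) and Cxcl10 at 941 and 556 CPM (0.76, 0.66 to 0.86), where 9.46% of 6330 genes were past 1.5-fold higher. The C1q genes moved along there, at 9638 and 4111 CPM in all, with log2 ratios of 1.18, 1.22 and 1.31 for C1qa, C1qb and C1qc, and their part was not tested.

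The monocyte/macrophage-like class is a mixture whose make-up differed between the libraries. Most niche cells of the class lay in cluster 2 (28.2%), led by Dnase1l3, Ccl8 and C1qa, and in cluster 1 (28.0%), led by Ly6i, Ly6c2 and Gpr84. Most distal cells lay in cluster 3 (36.2%), led by Fabp5, Mmp12, Apoe and Trem2, and in cluster 11 (23.6%), led by Pf4 and Folr2. Clusters 1 and 2 held 15.4% and 7.88% of the distal cells, and clusters 3 and 11 held 18.7% and 4.23% of the niche cells. Cluster 6, led by the mitotic genes Birc5 and Top2a, held 14.7% of niche and 8.48% of distal cells. Cluster 14, led by the interferon-induced Rsad2 and Ifit3, held 5.93% and 6.06%.

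Within every one of the 6 clusters that had at least 30 cells of each library, Cxcl9 was higher in the niche cells, but by very different amounts. In cluster 1 it stood at 6788 CPM in niche cells, against 5993 CPM in distal cells, a log2 ratio of only 0.18 (0.13 to 0.23). In cluster 2 it was at 5804 and 3587 CPM (0.69, 0.62 to 0.77), and in cluster 14 at 7104 and 4691 CPM (0.60, 0.50 to 0.69). The clusters with little Cxcl9 had the larger ratios. Cluster 3 had 1852 CPM in niche and 736 CPM in distal cells (1.33, 1.24 to 1.43), cluster 6 had 3551 and 1721 CPM (1.04, 0.96 to 1.13), and cluster 11 had 1447 and 531 CPM (1.45, 1.29 to 1.61). With each cluster given the same weight, a view chosen after the data were seen, the log2 ratio of Cxcl9 was 0.62 in place of 1.20.

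Cxcl10 did not keep 1 direction across the clusters. It was lower in niche cells of cluster 1 (1184 against 1561 CPM in distal cells, log2 ratio -0.40, -0.50 to -0.30), of cluster 2 (865 against 1019 CPM, -0.24, -0.37 to -0.10) and of cluster 14 (2870 against 3777 CPM, -0.40, -0.51 to -0.28). It was nearly level in the mitotic cluster 6, at 1989 and 2081 CPM (-0.07, -0.15 to 0.02). It was higher in niche cells of cluster 3 (449 against 122 CPM, 1.87, 1.65 to 2.11) and of cluster 11 (955 against 415 CPM, 1.20, 1.02 to 1.39). With each cluster weighted alike its log2 ratio was -0.11, and without the cells of highest doublet score it was -0.075, so the small excess over the whole class turned with the cells that were counted. Cluster 14 carried the most Cxcl10 in both libraries, and within these 6 clusters Cxcl9 exceeded Cxcl10 in both libraries except in distal cells of cluster 6, where there were 0.827 Cxcl9 UMIs for each Cxcl10 UMI.

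**Figure D1:**
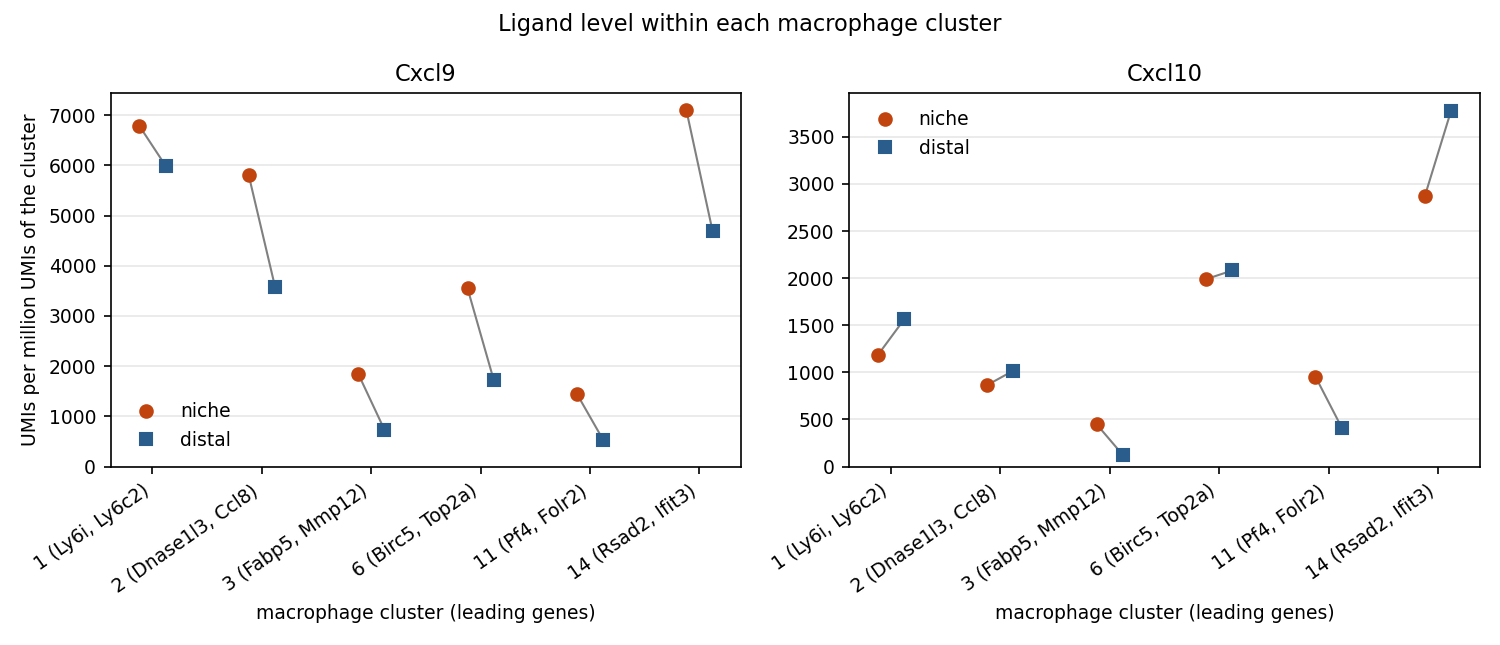
Level of Cxcl9 and Cxcl10 in CPM within each of 6 macrophage clusters, named by number and leading genes, for niche cells (circles) and distal cells (squares). Niche cells lie above distal cells in all 6 clusters for Cxcl9, whereas for Cxcl10 they lie below in clusters 1, 2, 6 and 14 and above in clusters 3 and 11.

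Dendritic cells also carried Cxcl9, though mixed, low-UMI and stromal-like niche cells, described apart, had higher levels. Migratory dendritic-like cells, which carry antigen to lymph nodes and here expressed Ccr7, Fscn1 and Ccl22, had 2652 CPM in 66 niche cells and 1346 CPM in 55 distal cells, a log2 ratio of 0.98 (0.84 to 1.12), where 9.44% of 1356 genes were past 1.5-fold in that direction. C1q RNA moved with this ratio, with 2334 CPM in niche cells, against 49.7 CPM in distal cells of the class, and its part in the difference was not tested. Their Cxcl10 was at 374 and 316 CPM, a log2 ratio of 0.24 (-0.08 to 0.57). The sums rested on few cells, since the 5 highest ones accounted for 60.2% of Cxcl9 UMIs in niche and 79.2% in distal cells. Conventional dendritic-like cells had 1714 CPM of Cxcl9 in 31 niche cells and 808 CPM in 144 distal cells, too few in the niche library for a ratio. Droplets without any C1q UMI held 127 of 466 Cxcl9 UMIs in niche conventional and 183 of 1786 in niche migratory dendritic-like cells, against 975 of 1155 and 468 of 515 in distal cells of these classes.

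Low levels of Cxcl9 were counted in B cell-like and T cell-like droplets, classes that are not known to make it. In the niche library 14 of 38 B cell-like (36.8%, 21.8 to 54.0) and 7 of 36 T cell-like droplets held a Cxcl9 UMI, at median depths of 1736.5 and 2576 UMIs, against 5 of 199 (2.51%) and 8 of 369 (2.17%) in the distal library, at 2289 and 2815 UMIs. Summed over each of these niche classes, though not droplet by droplet, Cxcl9 and the macrophage RNA C1q stood in a proportion like that of macrophages. For every 100 C1q UMIs there were 43.5 Cxcl9 UMIs (18.5 to 94.97) in niche T cell-like, 48.6 (26.1 to 87.6) in niche B cell-like and 45.9 in niche monocyte/macrophage-like cells. Of the positive niche droplets, 9 of 14 B cell-like and 3 of 7 T cell-like ones held no C1q UMI. Whether these UMIs are free RNA was not tested, and they are not read as expression by these classes. Stromal-like cells stood higher, with 3641 CPM in 42 niche and 375 CPM in 126 distal cells. They had 65.3 and 21.96 Cxcl9 UMIs for every 100 C1q UMIs, with C1q itself at 5573 and 1707 CPM. Their 5 highest droplets held 66.2% of these Cxcl9 UMIs in the niche and 97.1% in the distal library. Plasmacytoid dendritic-like cells had 2731 CPM of Cxcl9 in 17 niche and 213 CPM in 31 distal cells, with C1q at 4100 and 542 CPM, and the 5 highest niche droplets held 90.1% of it.

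Cxcl10 showed another pattern outside macrophages. Distal T cell-like droplets held 184 Cxcl10 UMIs in 31 of 369 cells, and 183 of these UMIs lay in droplets with no C1q UMI, so that there were 708 Cxcl10 UMIs (468 to 1112) for every 100 C1q UMIs, against 9.70 (9.38 to 10.0) in distal monocyte/macrophage-like cells. Non-classical monocyte-like cells, which patrol vessels, held 495 UMIs in 24 of 267 distal cells (454 CPM), and neutrophil-like cells held 261 UMIs in 21 of 359 distal cells (574 CPM). In the niche library these classes had 98 UMIs in 8 of 36 cells and 24 UMIs in 6 of 29 cells. In these distal classes Cxcl10 outnumbered Cxcl9, with 0.0435 Cxcl9 UMIs per Cxcl10 UMI in T cell-like (0.0185 to 0.0875), 0.330 in neutrophil-like (0.255 to 0.422) and 0.420 in non-classical monocyte-like cells (0.356 to 0.495). In monocyte/macrophage-like cells the same figure was 3.82 in niche and 2.13 in distal cells.

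The Cxcl10 of these distal cells was concentrated in few droplets. The 5 highest T cell-like droplets held 64.1% of the class's Cxcl10 UMIs, and single droplets reached 44 UMIs in T cell-like, 58 in neutrophil-like and 106 in non-classical monocyte-like cells. Droplets with a Cxcl10 UMI also held more RNA of both interferon response lists. At 1000 UMIs per cell the summed level of the type I list was 4484 CPM in 31 Cxcl10-positive and 916 CPM in 334 Cxcl10-negative T cell-like cells. It was 15357 CPM in 14 positive and 5140 CPM in 200 negative neutrophil-like cells, and 4292 against 1889 CPM in 24 and 235 non-classical monocyte-like cells. The interferon gamma list was at 4581 against 1716 CPM in T cell-like, 10214 against 1380 CPM in neutrophil-like and 11833 against 7723 CPM in non-classical monocyte-like cells. The positive T cell-like cells were deeper, with a median of 5466 against 2767 UMIs, and the part of depth in which cells scored positive was not tested.

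**Figure D2:**
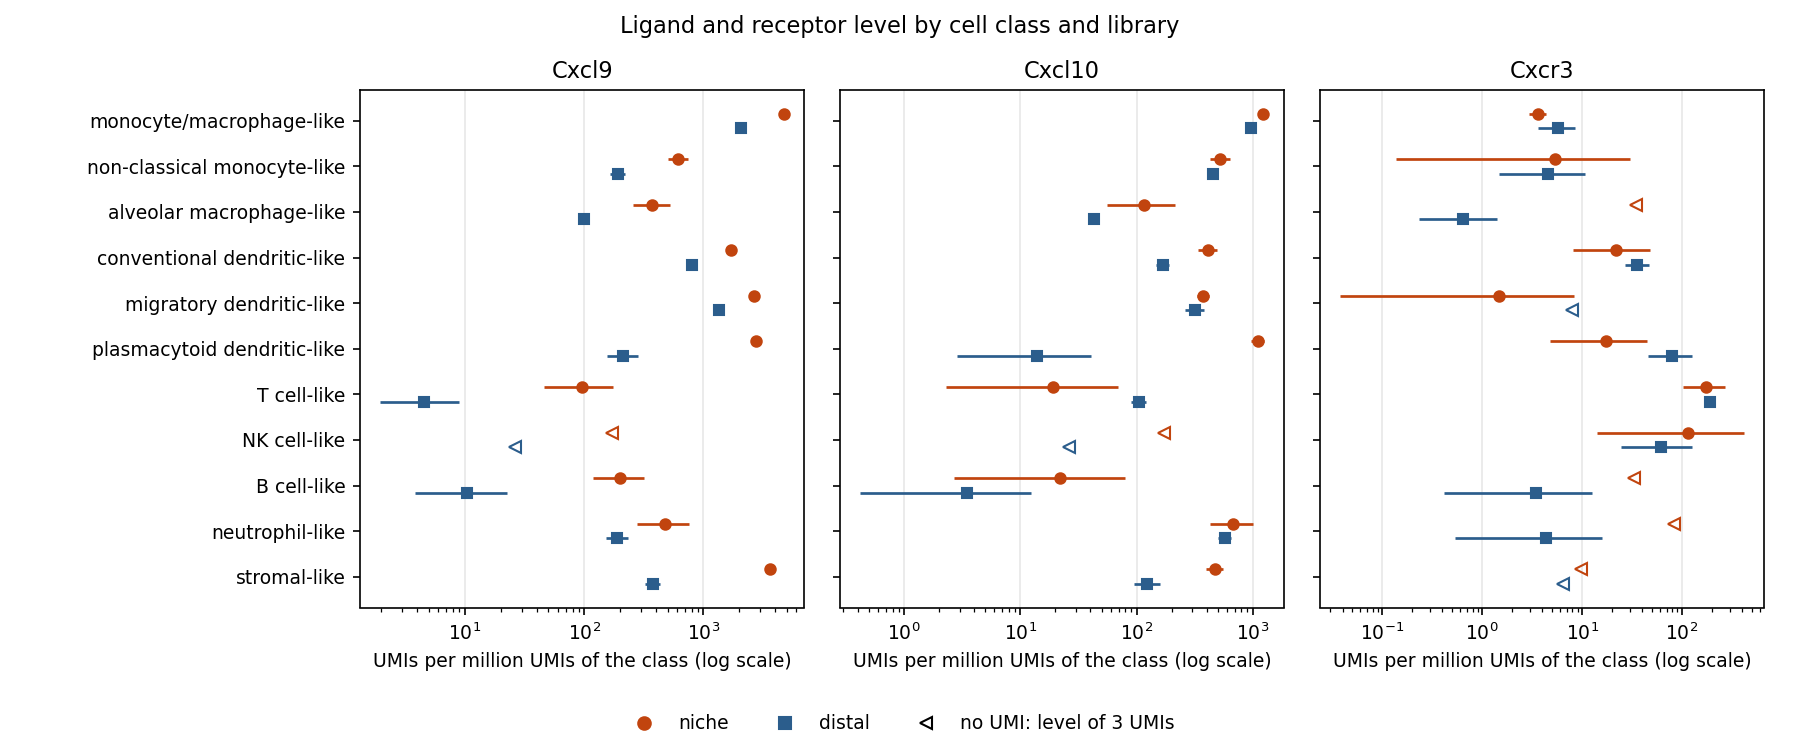
Level of Cxcl9, Cxcl10 and Cxcr3 in 11 named cell classes, leaving out mixed, low-UMI and the smallest classes, in CPM on a log scale, with exact Poisson intervals, for the niche library (circles) and the distal library (squares). Open triangles mark classes without a UMI at the level that 3 UMIs would give. Among the classes drawn, both ligands are highest in monocyte/macrophage-like cells and Cxcr3 in T cell-like cells.

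How the ligands spread over single macrophages was read after thinning each cell to 5000 UMIs, which left 1990 niche and 390 distal cells. Cxcl9 had a median of 20 UMIs per niche cell, with quartiles of 6 and 35 and a highest cell at 167. In distal cells the median was 1, with quartiles of 0 and 15.75 and a highest cell at 132. No Cxcl9 UMI was found in 9.50% of niche and 44.6% of distal cells. The top 10% of cells held 30.2% of Cxcl9 UMIs in niche and 52.0% in distal cells, so Cxcl9 was spread over most niche cells and concentrated in a minority of distal cells.

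Cxcl10 UMIs lay in fewer cells than Cxcl9 UMIs in both libraries. Its median was 1 UMI in niche and 0 in distal cells, and 42.2% and 65.6% of cells had none. The top 10% of cells held 57.4% of Cxcl10 UMIs in niche and 81.5% in distal cells. For comparison, the top 10% held 26.4% and 26.8% of C1qa UMIs, and 17.4% and 18.3% of the UMIs of Cd74, the MHC class II chaperone. It held 34.0% and 34.2% of those of Lyz2, the lysozyme gene, and 48.1% and 40.6% of those of Apoe, a lipid carrier gene, so that both were more uneven than Cxcl9 in niche cells. The variance divided by the mean, which is near 1 for counting noise alone, was 21.3 in niche and 42.6 in distal cells for Cxcl10, and 21.0 and 30.4 for Cxcl9. For Apoe it was 46.5 and 61.9, above both ligands, and for Lyz2 29.7 and 54.4.

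At the upper end the order of the libraries for Cxcl10 was no longer the same. At least 10 Cxcl10 UMIs were found in 19.6% of niche cells (17.9 to 21.5) and 11.3% of distal cells (8.32 to 14.8). At least 60 were found in 0.603% of niche cells (12 of 1990, 0.312 to 1.05) and 2.05% of distal cells (8 of 390, 0.890 to 4.002), intervals that overlap. For Cxcl9 niche cells were more frequent at each of these steps, with 68.5% against 30.5% at 10 UMIs and 7.84% against 3.33% at 60 UMIs.

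**Figure D3:**
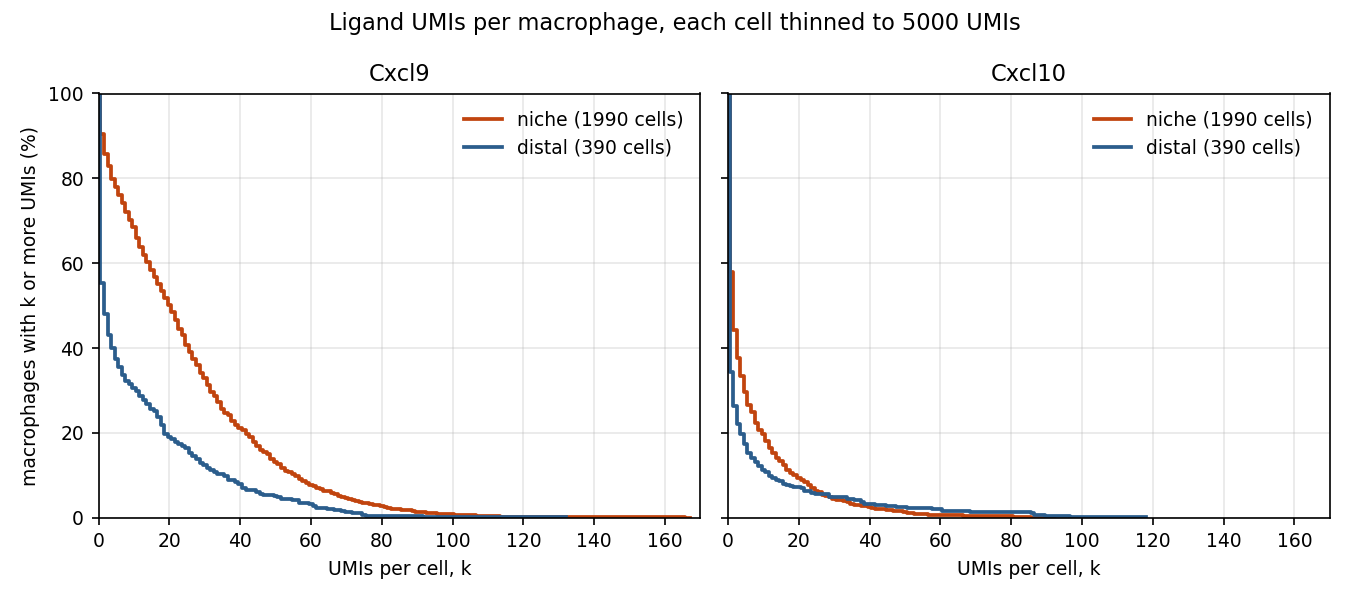
Share of monocyte/macrophage-like cells, in percent, that held at least k UMIs of Cxcl9 or Cxcl10, each cell thinned to 5000 UMIs, for 1990 niche and 390 distal cells. The niche curve lies above the distal curve throughout most of the range for Cxcl9, and for Cxcl10 the curves meet at high UMI numbers.

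Cells of a single cluster still differed in ligand UMIs, but the share held by the top 10% varied with the cluster. For Cxcl9 in distal cells it was 52.0% over the class. It lay below this in clusters 1 and 2 and above it in clusters 3, 6 and 11. In niche cells of cluster 1 the median of Cxcl9 was 29 UMIs and the top 10% of cells held 25.2% of them, and in distal cells of the same cluster these were 25 UMIs and 26.4%. In cluster 3 the top 10% held 41.4% in niche and 55.4% in distal cells, and in cluster 11 it held 65.0% and 93.9%. Cxcl10 in niche cells of cluster 14, the cluster with the highest level, had a median of 9 UMIs, and the top 10% held 36.5% of them.

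Niche macrophages held both ligands more often than 1 alone, and distal macrophages held 1 alone more often than both. Of niche cells 54.6% held both, 35.9% held Cxcl9 only, 3.27% Cxcl10 only and 6.23% neither. Of distal cells 25.4% held both, 30% Cxcl9 only, 8.97% Cxcl10 only and 35.6% neither. Cxcl10 was found in 60.3% of Cxcl9-positive (58.0 to 62.6) and 34.4% of Cxcl9-negative niche cells (27.6 to 41.6), and in 45.8% (39.1 to 52.7) and 20.1% (14.4 to 26.8) of distal cells. Under 7 of 8 alternatives the share among Cxcl9-negative cells stayed within its interval in each library. In the largest cluster alone, cluster 1, it was 80% in niche and 75% in distal cells. Among Cxcl9-positive cells the highest value under the alternatives was 67.2% in niche and 48.3% in distal cells. Cluster 1 held only 5 niche and 4 distal cells without Cxcl9, and the part of clusters was not tested. Across cells the Pearson correlation of log UMIs was 0.24 in niche and 0.37 in distal macrophages, where all points share 1 library and 1 depth. Cxcl10 exceeded Cxcl9 in 10.9% of niche and 14.6% of distal cells.

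Among 4434 genes found in at least 10% of macrophages of both libraries, the pattern most like that of Cxcl9 over cells was that of Serpina3g, a protease inhibitor gene induced by interferon gamma, with r of 0.51 in niche and 0.55 in distal cells. It was followed by AW112010 (0.47 and 0.57), Ly6a (0.45 and 0.64) and the guanylate-binding protein gene Gbp2b (0.44 and 0.51). The other 11 genes named by the same rule were Prdx5, Ppt1, Fam26f, Gbp4, Gbp2, Ly6e, Dnase1l3, Psme2, Sod2, Aif1 and Cd52. Cxcl10 ranked 42 in this list. The guanylate-binding protein genes are near copies of one another, and how reads were split between them is not known here.

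The pattern most like that of Cxcl10 was that of Iigp1, an interferon-inducible GTPase gene (0.37 in niche and 0.41 in distal cells), followed by Ifi47 (0.32 and 0.44), Socs1, a feedback inhibitor of interferon signalling (0.31 and 0.50), Rsad2, an antiviral enzyme gene (0.30 and 0.43), and Ifit1 (0.29 and 0.33). The other 10 were Ccl12, Igtp, Gbp5, Cd69, Ch25h, Irf1, Fam26f, Cxcl9, Gbp7 and Ccl2, with Cxcl9 at rank 13. Fam26f was on both lists.

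To see which response genes went with each ligand, cells at or above the upper quartile of a ligand were set against cells at or below its lower quartile, within a library and at 5000 UMIs per cell. For Cxcl9 these were 509 niche cells with 35 to 167 UMIs against 513 with 0 to 6, and 98 distal cells with at least 16 UMIs against 174 with none. For Cxcl10 they were 531 niche cells with at least 6 UMIs against 839 with none, and 103 distal cells with at least 2 UMIs against 256 with none. The cell sets differed in clusters. Cluster 1 made up 45.0% of Cxcl9-high and 9.16% of Cxcl9-low niche cells and cluster 3 made up 2.36% and 44.2%, and the part of clusters in what follows was not tested.

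Interferon gamma response genes were higher with Cxcl9 in both libraries. Of 25 such genes with enough UMIs, 20 were past 1.5-fold higher in Cxcl9-high niche cells, where 5.19% of 8456 genes were, and in distal cells 17 of 21 were, where 14.8% of 4306 genes were. No gene of the list was past 1.5-fold lower. The median log2 ratio of the list was 0.99 in niche and 1.22 in distal cells, against -0.11 and 0.05 over all genes. Serpina3g was at 1002 CPM in Cxcl9-high and 201 CPM in Cxcl9-low niche cells, and at 586 and 65.5 CPM in distal cells. It was ranked above as most like Cxcl9 over these same cells, so its difference is not separate evidence. Psmb9, a subunit of the immunoproteasome, was at 777 and 474 CPM in niche cells and at 820 and 370 CPM in distal ones. The highest genes of the list, Cd74 and H2-Ab1 of MHC class II, scarcely differed, with log2 ratios of 0.14 and 0.31 in niche and -0.12 and 0.19 in distal cells.

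The same list was also higher with Cxcl10, with 16 of 25 genes past 1.5-fold in niche cells (5.20% of all genes) and 14 of 21 in distal cells (10.4%), at medians of 0.82 and 1.32. Of 24 type I interferon response genes, 17 were past 1.5-fold higher with Cxcl10 in niche cells, with a median log2 ratio of 0.86. With Cxcl9, 5 of the 24 were past it, beside 5.19% of all genes, and 21 had a ratio above 0, with a median of 0.36. In distal cells the counts were 19 of 21 with Cxcl10 and 11 of 21 with Cxcl9, beside 10.4% and 14.8% of all genes. The difference between the ligands was not tested. Rsad2 was at 353 CPM in Cxcl10-high and 33.4 CPM in Cxcl10-low niche cells, but at 177 CPM in Cxcl9-high and 168 CPM in Cxcl9-low niche cells. In distal cells Rsad2 was at 680 and 33.6 CPM by Cxcl10 and at 459 and 133 CPM by Cxcl9. Isg15, a ubiquitin-like antiviral gene and the most abundant of the list, went with both ligands in niche cells, with log2 ratios of 0.85 by Cxcl9 and 1.02 by Cxcl10. The niche and distal cell sets differ in their UMI limits, so the counts of the libraries stand side by side without a comparison.

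Of 15 NF-kB response genes, 4 were past 1.5-fold lower and 0 higher in Cxcl9-high niche cells, where 14% of all genes were past 1.5-fold lower, and 8 were lower and 2 higher in distal cells, where 12.4% of all genes were lower. Cxcl2, a neutrophil chemokine, was at 286 CPM in Cxcl9-high and 907 CPM in Cxcl9-low niche cells, and at 359 and 2134 CPM in distal cells. Il1b, the most abundant gene of the list, was somewhat higher with Cxcl9 instead, at log2 ratios of 0.34 and 0.63. With Cxcl10, 4 of the 15 genes were past 1.5-fold higher and 0 lower in niche cells, and 4 were higher and 1 lower in distal cells. Over all genes 5.20% were higher and 6.84% lower in niche cells, and 10.4% higher and 7.59% lower in distal cells. Cd14 was at 497 and 512 CPM in Cxcl10-high and Cxcl10-low niche cells and at 371 and 670 CPM in Cxcl9-high and Cxcl9-low ones.

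Of 14 other chemokine genes of macrophages, 9 were past 1.5-fold lower and 1 higher in Cxcl9-high niche cells, where 14% and 5.19% of all genes were. In Cxcl9-high distal cells 8 were lower and 2 higher, beside 12.4% and 14.8% of all genes. With Cxcl10, 4 were higher and 2 lower in niche cells (median log2 ratio 0.01), beside 5.20% and 6.84% of all genes. In Cxcl10-high distal cells 5 were higher and 3 lower (-0.02), beside 10.4% and 7.59% of all genes. The genes that follow were picked after their values were seen. Ccl5, a chemokine gene of macrophages and T cells, was among the higher, at 2140 CPM in Cxcl9-high and 859 CPM in Cxcl9-low niche cells and at 2265 and 249 CPM in distal cells. By Cxcl10 it was at 1458 and 1512 CPM in niche cells and at 794 and 1063 CPM in distal ones. Ccl12, a ligand of the monocyte receptor CCR2, was at 1289 CPM in Cxcl10-high and 386 CPM in Cxcl10-low niche cells and at 1181 and 432 CPM in distal cells, but at 667 and 926 CPM by Cxcl9 in niche cells.

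**Figure D4:**
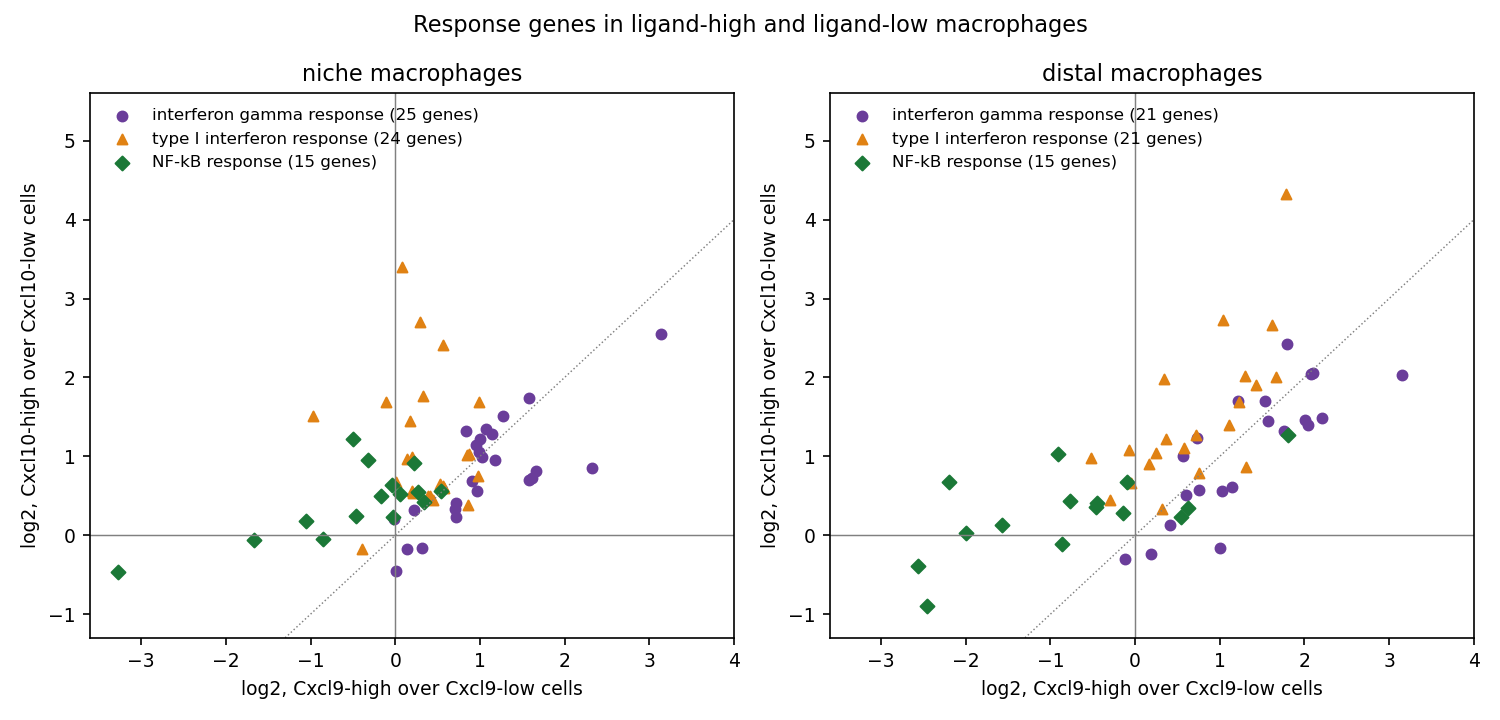
For each response gene, the log2 ratio of Cxcl9-high over Cxcl9-low macrophages (horizontal axis) and of Cxcl10-high over Cxcl10-low macrophages (vertical axis), in the niche library (left) and the distal library (right), with the dotted line marking equal ratios. Most type I interferon response genes lie above the line, most NF-kB response genes lie above it and to the left, and interferon gamma response genes lie to the right of 0 in both libraries apart from a few.

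The receptor was counted at far lower levels. Cxcr3 had 205 UMIs in 149 niche cells and 479 UMIs in 254 distal cells. T cell-like cells stood highest, at 172 CPM (102 to 272, 18 UMIs) in 36 niche cells and 193 CPM (173 to 214, 340 UMIs) in 369 distal cells. Their summed levels did not differ beyond counting error. A Cxcr3 UMI was found in 5 of 36 niche (13.9%, 4.67 to 29.5) and 154 of 369 distal T cell-like cells (41.7%, 36.7 to 47.0). These intervals do not overlap, at median depths of 2576 and 2815 UMIs. After thinning to 1000 UMIs the shares were 11.4% (3.20 to 26.7) and 13.4% (10.1 to 17.4), intervals that overlap. The niche class was too small for a ratio, and all 18 niche UMIs came from 5 droplets.

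Next in the distal library came plasmacytoid dendritic-like cells, producers of type I interferon, at 78.7 CPM (45.8 to 126, 31 cells), and NK cell-like cells at 61.5 CPM (24.7 to 127, 39 cells), whose intervals overlap. Conventional dendritic-like cells followed at 35.7 CPM (26.6 to 46.9, 144 cells). In the niche library these classes had 17.4 CPM in 17 cells, 115 CPM in 7 cells and 22.1 CPM in 31 cells, each from at most 6 UMIs. Stromal-like cells had no Cxcr3 UMI in 42 niche and 126 distal cells, which, at 3 counts, allows shares of cells with a UMI of up to 7.14% and 2.38%. Migratory dendritic-like cells had 1 UMI in 66 niche cells and 0 in 55 distal cells.

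Within conventional dendritic-like cells Cxcr3 went with type 1 markers. Of 89 distal cells with at least 3 markers of type 1 dendritic cells such as Xcr1, 31 held a Cxcr3 UMI (34.8%, 25.04 to 45.7), against 0 of 55 with fewer (which allows up to 5.45%), in which Cd209a, a marker of type 2 cells, was at 508 CPM instead of 10.2 CPM. Median depths were 10734 and 7492 UMIs. In the niche library 4 of 13 and 0 of 18 cells held one, at 12220 and 1635 UMIs. This split by at least 3 markers was chosen after the data were seen. None of the 31 distal and 4 niche droplets held a UMI of the T cell markers Cd3d, Cd3e, Cd3g, Trac, Trbc2, Lat, Bcl11b, Lck and Cd28.

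Monocyte/macrophage-like cells held few Cxcr3 UMIs per cell but, being many, most of the niche total. They had 107 UMIs in 94 of 2175 niche cells (4.32%, 3.51 to 5.26) and 23 UMIs in 20 of 495 distal cells (4.04%, 2.49 to 6.17), at 3.58 and 5.68 CPM. Alveolar macrophage-like cells of the distal library, at a median depth of 7260 UMIs close to that of the distal monocyte/macrophage-like cells, held one in 4 of 1221 cells (0.328%, 0.0893 to 0.837). Of the positive cells 86 of 94 niche and 17 of 20 distal ones held no T cell marker UMI. There were 35.9 Cxcr3 UMIs (28.5 to 44.9) per 100 UMIs of the T cell markers in niche and 25.6 (15.4 to 40.8) in distal cells of the class, against 3.03 and 3.30 in T cell-like cells. The log2 ratio of Cxcr3 in the class, -0.69, had an interval of -1.33 to 0.05 that held 0. No cell of the class had more than 2 Cxcr3 UMIs.

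Most niche droplets with several T cell markers lay outside the T cell-like class. At least 3 of the T cell markers were found in 204 niche and 458 distal droplets, of which 41 (20.1%, 14.8 to 26.3) and 178 (38.9%, 34.4 to 43.5) held a Cxcr3 UMI. Their median depths were 18716.5 and 3723.5 UMIs. After thinning to 1000 UMIs the shares were 2.94% (1.09 to 6.29) and 11.8% (9.02 to 15.2). Of the niche droplets 169 lay in other classes, at a median of 20773 UMIs, and 32 of the 41 with a Cxcr3 UMI lay in mixed clusters. The part of RNA from other cells in the lower share was not tested.

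Distal T cell-like cells were numerous enough to ask what went with the receptor. Cells with a Cxcr3 UMI (151) were set against those without (214), and the other genes were read at 1000 UMIs per cell. Of 28 genes listed for lymphocytes that carry the receptor, Cd4, Cd8a and Foxp3 among them, 26 were found in a larger share of Cxcr3-positive cells. For Cd4 the shares were 7.95% and 7.94%. Of the 2497 genes found in at least 5% of cells, a limit not set for the list, 61.8% were found in a larger share. For 7 of the 28 the intervals did not overlap, as for 5.17% of the 2497 genes. Gzmb, a cytotoxic granule protease gene, was found in 21.9% (15.5 to 29.3) of positive and 4.67% (2.26 to 8.43) of negative cells. Nkg7, another granule gene, was found in 46.4% and 23.8%, Ccl5 in 36.4% and 14.95%, and Ctla4, an inhibitory receptor gene, in 29.1% and 10.3%. Tbx21, which encodes the transcription factor T-bet, was found in 5.96% (2.76 to 11.01) and 0.467% (0.0118 to 2.58). Ifng was found in 9.27% (5.16 to 15.1) and 4.21% (1.94 to 7.83), intervals that overlap, and its level was 106 CPM in positive and 112 CPM in negative cells.

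Genes of naive lymphocytes lay on the other side. All 9 were found in a smaller share of Cxcr3-positive cells, where 38.2% of all genes were, and for 5 the intervals did not overlap, as for 1.36% of all genes. Ccr7, the lymph node homing receptor gene, was found in 1.99% (0.412 to 5.70) of positive and 32.2% (26.0 to 39.0) of negative cells. Klf2 was found in 15.9% and 50%, and Il7r, a survival cytokine receptor gene, in 11.3% and 42.1%. Cxcr3 was found in 48 of 88 cells with Cd4 but no Cd8 UMI (54.5%, 43.6 to 65.2) and in 57 of 116 with Cd8a or Cd8b1 but no Cd4 UMI (49.1%, 39.7 to 58.6), which did not differ beyond counting error. The Cxcr3-positive cells were deeper, with a median of 5399.5 against 2509 UMIs. Thinning equalizes depth for the other genes but not for the call of Cxcr3 itself, whose part was not tested.

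**Figure D5:**
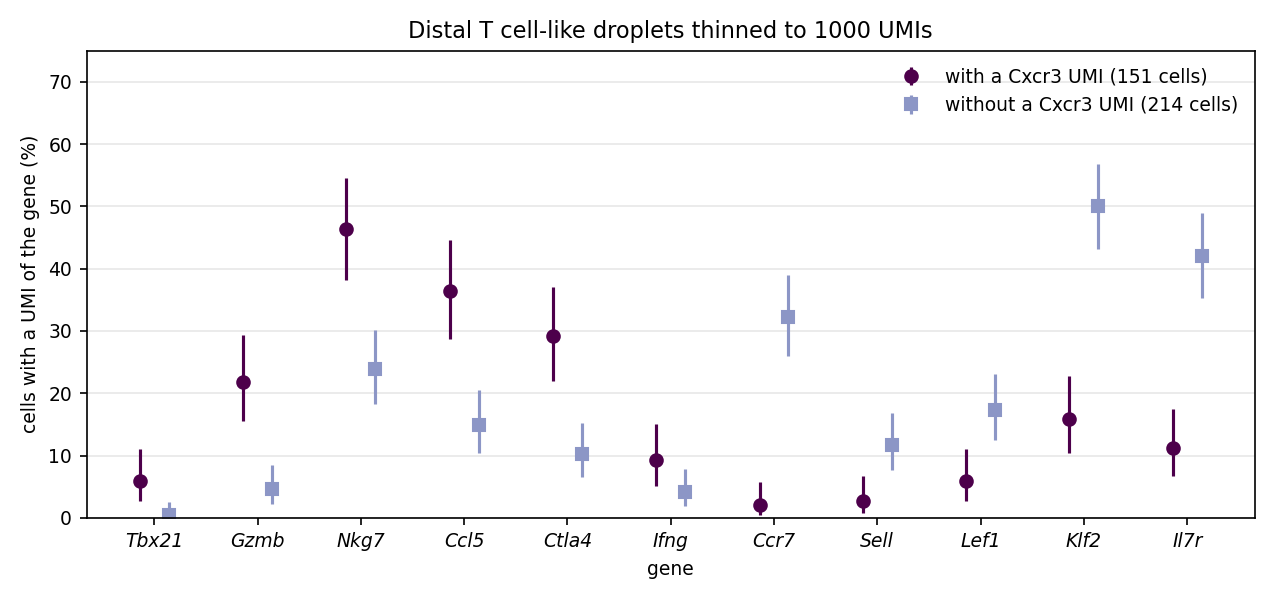
Share of distal T cell-like cells, in percent with exact binomial intervals, that held a UMI of each gene after thinning to 1000 UMIs, for 151 cells with a Cxcr3 UMI (circles) and 214 without (squares). Genes from Tbx21 to Ifng belong to the list for lymphocytes that carry the receptor and those from Ccr7 to Il7r to the naive list.

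Over 21 sums of a class in a library, each of at least 30 cells, the genes most like Cxcr3 among 11786 were Xlr4b (r of 0.86), Cd7 (0.82), Sla2 (0.81), Hs3st3b1, 1810041H14Rik, Syne3, Spag5, Rasal3, Tnfsf8 and Cd4. The sums share their libraries, and most of them are near 0 for the receptor, so this ranking rests on the few lymphoid and dendritic classes.

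The inducer and its sensors were counted as well. Ifng, which encodes interferon gamma, had 257 UMIs in distal T cell-like cells (146 CPM, 128 to 165) and 15 in distal NK cell-like cells (132 CPM). In the niche library 1 UMI lay in T cell-like cells and 37 of 41 lay in mixed clusters, where 12 of 276 droplets held one. Of the 10 genes of interferon gamma signalling, 9 had enough UMIs in monocyte/macrophage-like cells. None was past 1.5-fold higher in the niche library, and Ifngr1, a receptor subunit gene, was past it in the other direction with 94.2 CPM in niche cells, against 158 CPM in distal cells. Of all 9419 genes of the class 5.39% were past 1.5-fold higher and 8.08% lower. Counts this small in a list of 9 are not read as a result about the list.

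Of 26 interferon gamma response genes measured in monocyte/macrophage-like cells, 24 had a log2 ratio above 0 and 10 were past 1.5-fold higher in niche cells, where 5.39% of all genes were. Their median was 0.52 beside 0.00 over all genes, and the remaining 2, the MHC class II genes Cd74 and H2-Ab1, had -0.34 and -0.19. Gbp6, one of the 10, shares exons with a gene that stands in 1 of the gene lists alone, and its ratio is uncertain. Of 24 type I interferon response genes 1 was above 0 and 8 were past 1.5-fold lower, where 8.08% of all genes were, with a median of -0.36. Cxcl9, at 1.20, lay above the median of the interferon gamma list, and Cxcl10, at 0.35, lay between the medians of both lists. All of these ratios are sums over the class, whose make-up by clusters differed between the libraries, and the part of that was not tested. Il12b, a subunit gene of a cytokine that drives interferon gamma production, was concentrated in migratory dendritic-like cells, with 546 CPM in niche cells, against 491 CPM in distal cells. Dpp4, whose product trims and inactivates these chemokines, was at 96.5 and 107 CPM in migratory and 80.9 and 83.3 CPM in conventional dendritic-like cells, against 9.50 CPM in niche monocyte/macrophage-like cells.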

How the data were processed

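Single-cell RNA was counted in 1 niche and 1 distal library of lung immune cells, grouped by the sample titles. The deposited matrices hold raw UMI counts per gene and barcode. Per the file headers they were written by Cell Ranger, cellranger-6.0.0 for niche and 3.0.2 for distal. Per the submitters' processing notes, RSEM, Bowtie2, Seurat 4.1.1 and Cell Ranger 3.02 were used, on GRCm38 or mm10, without steps given. The libraries held 3242 niche and 3945 distal barcodes with 38036915 and 22323465 UMIs.

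A barcode was kept if it had 200 or more genes and no more than 10% of UMIs from mitochondrial genes. Scrublet called 1 niche and 4 distal doublets (0.0755%) and was taken as not having worked. These calls were removed, and clusters with markers of 2 lineages were called mixed. Shared genes were clustered jointly (scanpy 1.11.5, 2000 variable genes, 30 components, 20 neighbours, Leiden resolution 1.0) without the members. A cluster took a name when a share of 0.75 of that name's markers (0.5 of the interstitial macrophage markers where no name reached this) was present at 0.15 of the highest cluster's level and in a share of 0.1 of its cells. These thresholds were set after clusters were seen, and a difference from the study's own classes may come from them. Mixed clusters took 8.96% of cells in the niche and 5.80% in the distal library, and low-UMI clusters took 10.2% and 0.255%.

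Levels are UMI sums as CPM with exact Poisson intervals, shares have Clopper-Pearson intervals, and ratios add 0.5 UMI with exact conditional binomial intervals, all at 95%. No count model or p-value was used, since cells are not replicates, and the ratio and thinning steps were tested on simulated data. The members, gene lists and named genes were chosen with earlier results of these data known. By the rule, named genes were the members, the 15 genes most correlated with each ligand and the 10 with Cxcr3, and the most abundant genes of each list. Rsad2, Cxcl2, Ccl5, Ccl12, Dpp4, Il12b and the genes named in distal T cell-like cells were picked after their values were seen. Alternatives were filters, resolution, doublets, totals, thinning and single clusters. Promoters come from RefSeq and positions from GENCODE, where all 3 members matched. Values of some genes are not reported here.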

Additional observations from a re-analysis of the deposited data

How the results depend on the processing

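In monocyte/macrophage-like cells Cxcl9 was higher in the niche library under each of 11 alternatives, but its log2 ratio of 1.20 moved by more than counting error in 8. It was 1.06 with a mitochondrial maximum of 5%, 1.16 with 20%, 1.05 and 1.14 at cluster resolutions of 0.5 and 2.0, 1.16 with the members among the clustering genes, 0.79 without the highest 5% of doublet scores, 0.18 in the largest cluster alone and 0.62 with clusters weighted alike, the last chosen after seeing the data. Cxcl10, at 0.35, was 0.22 with a mitochondrial maximum of 5%, -0.075 without the highest doublet scores, -0.40 in the largest cluster alone and -0.11 with clusters weighted alike, so its direction was not stable, and the cause was not tested. Of the 118 other values under alternatives, 38 moved beyond their counting interval. The share of distal T cell-like cells with a Cxcr3 UMI lay between 13.4% after thinning and 46.5%. A ratio of Cxcr3 in T cell-like cells was not run because the niche library held only 36 of them. No paired analysis was possible because each group is 1 library. Replicates could not be left out for the same reason. Depth limits Cxcr3, since 111 of 149 positive niche and 139 of 254 positive distal cells held a single UMI.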
